A study of Mus musculus with 6 samples.

Results

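Dense peak domains are stretches of the genome in which peaks of hnRNP UL1 chromatin binding follow each other closely. They were chosen from the peak positions: within each peak list, neighbouring peaks at most 10 kb apart on a chromosome were chained, and chains of at least 5 peaks were kept. Over the gene IDs that all 3 peak lists reach, 183 domains were found, of which 9 come from unstimulated cells, 164 from cells after 4 h of LPS and 10 from cells after 10 h. They hold 91 of 1312 peaks at 0 h, 1347 of 5298 at 4 h and 107 of 1152 at 10 h. The complete list of unstimulated cells gave 69 domains with 580 of its 8425 peaks.

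The cells were RAW 264.7, a mouse macrophage cell line, either untreated or given LPS (lipopolysaccharide, a component of the bacterial outer membrane) at 100 ng/ml for 4 h or 10 h. Chromatin was precipitated with an antibody to hnRNP UL1 and sequenced (ChIP-seq), with an input sample at each time. The series holds 6 samples, 1 ChIP and 1 input per time, and the 3 inputs were not analysed here. Every peak is a point, given without height, width of enrichment or read depth, so depth is unknown. No replicate exists at any time, and no test between times was possible. Intervals of shares are exact (Clopper-Pearson, 95%); they reflect counting error alone, and neighbouring peaks are not independent of each other.

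hnRNP UL1 belongs to the heterogeneous nuclear ribonucleoproteins, which bind newly made RNA and shape its splicing and export, and it is also recruited to sites of DNA damage. Such proteins can meet chromatin through nascent RNA and the transcription machinery. LPS is sensed by Toll-like receptor 4 on macrophages, which turns on inflammatory genes through NF-kB, AP-1 and interferon regulatory factors, while PU.1 maintains macrophage identity.

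Promoter sequences are shown for genes whose start lies in a domain on which the comparison of times turns. They are the 250 bases before the start in RefSeq (GRCm38.p6), and capitals mark matches to 4 motifs searched on both strands: NF-kB (GGGANTTCC), AP-1 (TGANTCA), PU.1 (GAGGAAGT) and the interferon-stimulated response element, written as GAAA, any 2 bases and GAAA. The gene Psap overlaps a domain at all 3 times, but its window (chr10:60277378-60277627, plus strand) and start lie in one at 0 h and 4 h only. The 4 h peak nearest to its start lies 235 bp downstream of it. Cpeb4 (chr11:31870690-31870939, plus strand) has a 4 h peak 55 bp downstream of the start. Cd274 (chr19:29367188-29367437, plus strand) has a 4 h peak 353 bp and a 10 h peak 1270 bp downstream. The Cpeb4 start lies in a domain at 4 h only. That of Cd274 lies in a domain at 10 h only, as its 4 h domain begins at the peak 353 bp downstream. A530013C23Rik (chr2:167690509-167690758, plus strand), a long non-coding RNA gene, starts in a domain of 10 h, and a 10 h peak lies inside the printed window, at -18 from the start.
Psap: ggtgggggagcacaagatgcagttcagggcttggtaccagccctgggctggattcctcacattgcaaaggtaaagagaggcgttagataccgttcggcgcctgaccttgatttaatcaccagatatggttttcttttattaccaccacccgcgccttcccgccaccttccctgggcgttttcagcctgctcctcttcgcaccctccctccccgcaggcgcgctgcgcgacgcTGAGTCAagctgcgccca
Cpeb4: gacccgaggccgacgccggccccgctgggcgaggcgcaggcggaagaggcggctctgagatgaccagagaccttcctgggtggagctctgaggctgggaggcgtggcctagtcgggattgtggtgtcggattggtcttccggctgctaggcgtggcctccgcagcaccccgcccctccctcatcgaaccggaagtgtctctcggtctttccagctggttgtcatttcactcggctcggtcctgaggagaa
Cd274: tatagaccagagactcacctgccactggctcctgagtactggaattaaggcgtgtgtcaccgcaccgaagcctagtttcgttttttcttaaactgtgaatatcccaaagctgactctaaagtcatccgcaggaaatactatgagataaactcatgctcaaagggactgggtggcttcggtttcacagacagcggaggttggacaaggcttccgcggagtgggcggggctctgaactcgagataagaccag
A530013C23Rik: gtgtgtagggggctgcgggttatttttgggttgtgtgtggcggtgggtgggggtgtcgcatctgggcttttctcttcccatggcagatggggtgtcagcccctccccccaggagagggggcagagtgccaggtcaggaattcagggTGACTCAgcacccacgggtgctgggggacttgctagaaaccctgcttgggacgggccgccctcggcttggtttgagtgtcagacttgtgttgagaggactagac
Psap holds an AP-1 match at -18 to -12 and A530013C23Rik one at -104 to -98, whereas these letters were not found in the Cpeb4 and Cd274 windows. Over the 75 promoters inside 4 h domains, AP-1 letters occurred in 8.0%, PU.1 letters in 2.67%, the interferon-stimulated element in 1.33% and NF-kB letters in 0%. Over all 32851 promoters of the reference the shares were 6.75%, 2.44%, 2.98% and 1.43%. The shares inside domains rest on few promoters, 6 for AP-1, 2 for PU.1 and 1 for the interferon-stimulated element. With NF-kB letters in 1.43% of all promoters, 75 promoters can easily show none. The 0% covers these letters in 250 bases and does not show that NF-kB sites are absent. A 4 h peak lay within the 250 bases in 12 of the 75 promoters.

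The domains with the most peaks in unstimulated cells lay at Zeb2, Atp6v0d2 and Psap. Zeb2, a transcription factor of the macrophage lineage, held the domain with the most peaks, 27 over 78.1 kb (chr2:45028544-45106602), of which 23 were intronic. Atp6v0d2, a subunit of the proton pump that acidifies lysosomes, carried 24 peaks over 68.1 kb. Psap, which encodes the precursor of the saposins that help degrade sphingolipids, carried 24 over 30.2 kb together with the end of Cdh23 (chr10:60273812-60304048).

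Further domains covered lysosomal and other genes. Gpnmb, a glycoprotein of the lysosome and melanosome, shared a domain of 20 peaks over 52.4 kb with Malsu1. Ctsb, the protease cathepsin B, had 19 peaks over 36.9 kb, and Ctsd, cathepsin D, had 12 over 16.8 kb with Ifitm10. Fnip2, a partner of folliculin in nutrient sensing at the lysosome, held 3 domains with 30 peaks in all. Litaf, named for its induction by LPS and active in endosomal sorting, had 20 over 44.6 kb, and Rgl1, an exchange factor for Ral GTPases, had 17 over 44.4 kb in the largest of its 3 domains. Lgals3, galectin-3, packed 12 peaks into 10.2 kb, while the 13 peaks at Lrmda stretched over 64.7 kb, so density differed among the largest domains.

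**Figure D1:**
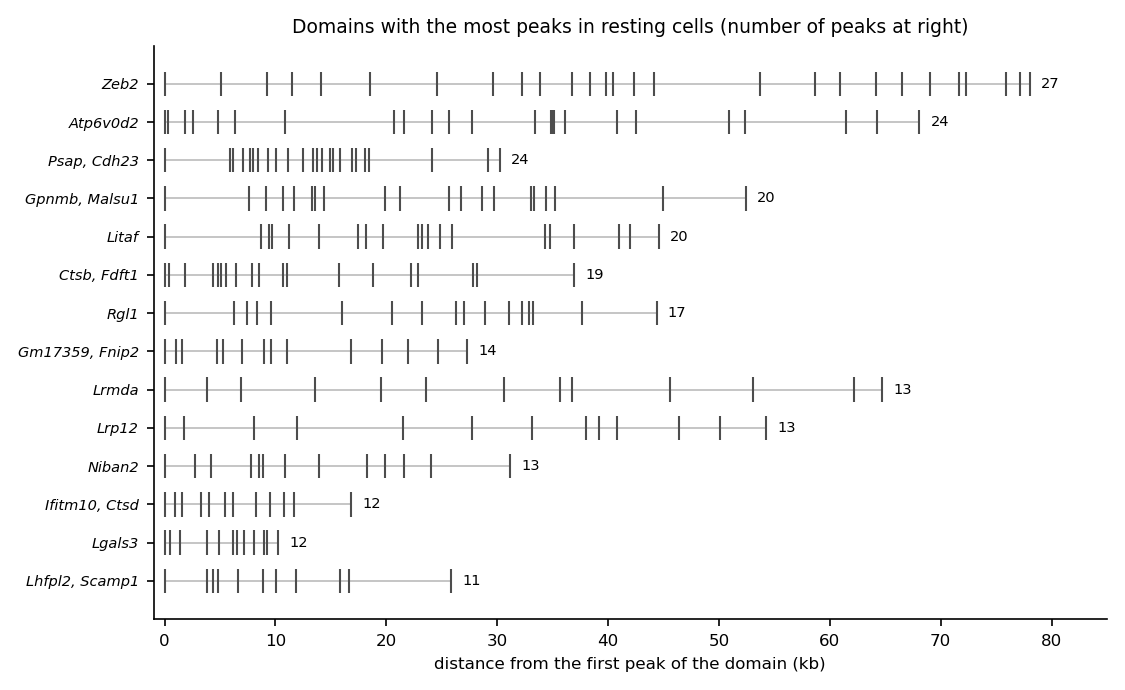
Positions of peaks in the 14 domains with the most peaks of unstimulated cells, from the complete 0 h list; the x axis is the distance in kb from the first peak, each tick is 1 peak and the number at right is the count. Peaks at Lgals3 lie within 10.2 kb, those at Zeb2 are spread over 78.1 kb.

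The 69 domains of unstimulated cells spanned 3.1 to 78.1 kb with a median of 19.1 kb, lay on 16 chromosomes and covered 1.57 Mb in total. They held 6.88% of the list (6.35 to 7.45%). Of them 26 had exactly 5 peaks, such as a stretch of 3.1 kb near Rgl1 and one of 32.3 kb near Cdc42, and 55 further chains stopped at 4 peaks, such as one of 12.1 kb near Rnf149 and one of 10.4 kb near D630023F18Rik. A further 27 domains had 6 to 9 peaks, 11 had 10 to 19 and 5 had 20 or more. Of the 69, 33 lay inside a single protein-coding gene and 9 touched none.

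These resting domains overlapped 67 of 21887 protein-coding genes, 0.306%. Of the lysosome list, 6 of 27 genes were covered (Atp6v0d2, Ctsb, Ctsd, Gpnmb, Psap and Slc29a3, a nucleoside transporter of the lysosome), 22.2%. Of the macrophage identity list, 2 of 21 were covered, Zeb2 and Ctsb, the latter being on both lists. Early LPS-induced genes had 1 of 42 (Atf3, a stress transcription factor, 7 peaks), TLR4 and NF-kB signalling genes 1 of 28 (Tab1, an adaptor of the kinase TAK1, whose edge was reached by a domain of 5 peaks with 1 inside the gene) and hnRNP and splicing factor genes 1 of 27 (Hnrnpf, 7 peaks). No late LPS-induced, interferon, DNA damage, housekeeping, T and B cell, neuronal or hepatocyte gene of the lists was covered. Covered genes were long, with a median of 47.9 kb against 17.1 kb for the others, and these lists were not matched for length. They were also drawn up with earlier results of these data known, so their shares describe the domains and are no independent support.

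Of 1005 miRNA hairpins in the reference, 2 lay in a resting domain. Mir29a and Mir29b-1, processed from a shared transcript, lie in a domain of 6 peaks over 11.8 kb (chr6:31058592-31070343). Their 3p strands share the seed, bases 2 to 8, in capitals below as given in RefSeq. The 4 h domain at Zeb2 held 1 further hairpin, Mir5129.
mmu-miR-29a-3p: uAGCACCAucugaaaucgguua
mmu-miR-29b-3p: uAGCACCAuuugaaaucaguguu

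The peak lists of LPS-treated cells end at lower gene IDs than the list of unstimulated cells, so times were compared only over the IDs common to all 3, and this breaks up some resting domains. Of the 69 complete domains, 18 had a peak in the common range, 8 had all their peaks there, 9 remained domains and 9 fell below 5 peaks. The 9 domains of 0 h spanned 6.0 to 54.3 kb (median 23.7 kb), the 164 of 4 h spanned 3.6 to 91.1 kb (median 18 kb) and the 10 of 10 h spanned 4.9 to 47.9 kb (median 19.9 kb). Median spans thus lay between 18 and 23.7 kb, while the numbers of domains differed more.

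Domains held 6.94% of peaks at 0 h (5.62 to 8.45%), 25.4% at 4 h (24.3 to 26.6%) and 9.29% at 10 h (7.67 to 11.1%). The share at 4 h lay above both others beyond counting error, but the 4 h list was also the longest. When every 4th peak of the 4 h list was kept, 5 to 8 domains remained with a mean of 2.79% of the peaks, fewer than the 9 at 0 h. Peaks were kept in order along the chromosome, so the 59 domains of 5 peaks and the 73 of 6 to 9 could not remain. The 0 h list kept its short chains, so the 2 lists were not matched like for like. When instead the link distance was lengthened to 40.4 kb at 0 h and 46.0 kb at 10 h to offset their shorter lists, 25 and 29 domains were found there. These domains held 16.8% of peaks at 0 h and 21.5% at 10 h, still below the 164 domains and 25.4% of 4 h. The thinning removes short chains by design and the longer link changes what counts as a domain. Neither matches the lists in full, so the larger number of domains at 4 h cannot be told apart from the larger number of peaks.

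**Figure D2:**
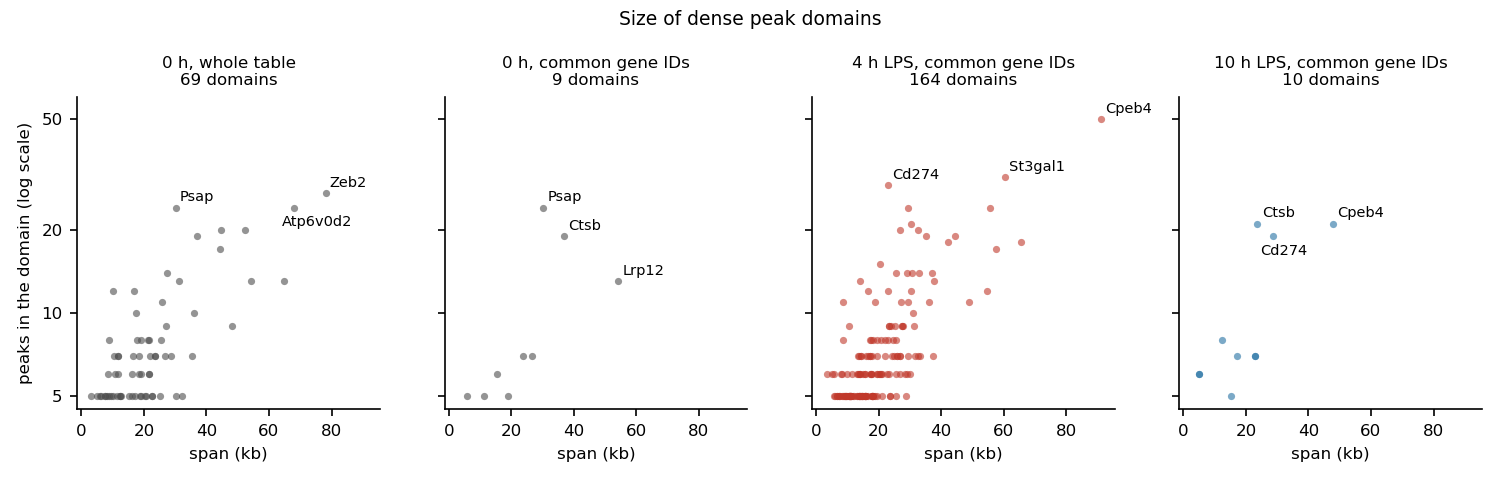
Number of peaks in each domain (y axis, log scale) against its span in kb (x axis); each point is 1 domain, in the complete 0 h list and, over the common gene IDs, at 0 h, 4 h and 10 h. The 3 domains with the most peaks are named in each panel, and Cpeb4 at 4 h has the most, 50.

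Over the common IDs, the 4 h domain with the most peaks and the longest span lay over Cpeb4, which encodes a protein that binds the tails of mRNAs and controls their translation. Its domain held 50 peaks over 91.1 kb (chr11:31864874-31956009), 34 of them intronic and 13 classed as distal intergenic. The same span held 11 peaks at 0 h and 25 at 10 h. St3gal1, a sialyltransferase of the Golgi, had 31 peaks over 60.4 kb at 4 h, while that span had 1 at 0 h and 7 at 10 h.

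Cd274 encodes PD-L1, the inhibitory ligand of T cells that macrophages induce under inflammation. Its 4 h domain packed 29 peaks into 23.1 kb (chr19:29367791-29390880), where 0 h had 1 peak and 10 h had 18. Pik3r5, a regulatory subunit of the PI3-kinase gamma, had 24 peaks at 4 h, and its span had 5 at 0 h and 6 at 10 h. A domain with Mx1 as the nearest gene had 24, 0 and 3 in that order, over 29.3 kb. Mx1 belongs to the interferon-induced Mx GTPases and is a transcribed pseudogene in this RefSeq annotation, so the domain counted under its protein-coding neighbour Bace2, which held 2 of the 24 peaks. For Npc2, a cholesterol transfer protein of the lysosome, they were 20, 2 and 3. Thus lysosomal genes appeared beside genes of the inflammatory response.

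Acod1, which makes itaconate in activated macrophages, lay in a domain of 19 peaks over 44.5 kb, where 0 h had 2 peaks and 10 h had 7. B4galt5, a galactosyltransferase, had 19 peaks at 4 h against 4 and 3. Epsti1, an interferon-induced gene, had 18 over 65.4 kb and Kpna3, an importin, 17 over 57.6 kb. Peli1, a ubiquitin ligase of Toll-like receptor signalling, had 18 at 4 h, none at 0 h and a single one at 10 h. With every 4th peak kept, Cpeb4, St3gal1 and Cd274 still lay in a domain from each of the 4 starting positions. Psap and Npc2 did so from 3, Ctsb from 2, and Acod1 and Bace2, the coding neighbour of Mx1, from 1. A domain over no protein-coding gene remained from 3. Domains with few peaks cannot survive this thinning, so these numbers largely follow the peak counts already given.

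Smaller 4 h domains had 5 peaks in 59 cases, such as 15.0 kb at Spi1 and 16.0 kb near Slpi, and a further 80 chains stopped at 4, such as 2 chains near Lhx2 of 6.4 and 5.6 kb. There were 73 domains of 6 to 9 peaks, 24 of 10 to 19 and 8 of 20 or more. Domains also lay side by side: 66 of the 164 stood within 100 kb of another, in 31 groups, whereas neither the 9 domains of 0 h nor the 10 of 10 h formed such a group. Tmcc3, which encodes a coiled-coil protein of the endoplasmic reticulum, held 4 domains with 40 peaks at 4 h, and Abr held 3 with 26.

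Most of the few domains at 0 h and 10 h overlapped one of 4 h, whereas few of the 164 at 4 h overlapped one of another time. Of the 9 domains at 0 h, 6 overlapped one of 4 h, 66.7% (29.9 to 92.5%), and 4 overlapped one of 10 h. Of the 10 domains at 10 h, 9 overlapped one of 4 h, 90.0% (55.5 to 99.8%), and 4 overlapped one of 0 h. Seen from 4 h, 6 of 164 overlapped a domain of 0 h, 3.66% (1.35 to 7.79%), and 9 a domain of 10 h, 5.49% (2.54 to 10.2%). The lists differ in length, so a share of the 4 h domains is bounded by the few domains at the other times. Keeping every 4th peak of 4 h leaves only domains with many peaks. A mean of 25% of the 0 h domains and 32.5% of the 10 h domains then overlapped one of 4 h.

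Merging overlapping domains gave 4 loci with a domain at all 3 times. Over the merged locus of Psap and Cdh23 the 0 h list had 24 peaks, the 4 h list 21 and the 10 h list 9. Ctsb with Fdft1, an enzyme of sterol synthesis, held 19, 20 and 21. Cpeb4 held 11, 50 and 25, and the locus of Gpr137b, an integral membrane protein of the lysosome, held 8, 9 and 7. The 0 h domain of that locus, with 5 peaks, had Gpr137b as nearest gene but did not overlap it. At Ctsb and Gpr137b the 3 counts were close to each other, at Cpeb4 the 4 h count stood highest, and at Psap 10 h stood lowest.

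Peaks of different times lay near each other at these loci to different degrees. The median gap between 4 h peaks was 849 bp at Psap and 1202 bp at Ctsb, so many positions there lie within 500 bp of one. How many peaks would lie so near by chance was not tested. At Psap, 17 of 24 peaks of 0 h lay within 500 bp of a 4 h peak. At Ctsb, 16 of 21 peaks of 10 h did so, and at Cpeb4 16 of 25. At Gpr137b, 6 of 8 peaks of 0 h lay that close to a 4 h peak, but 2 of 7 peaks of 10 h did. Seen from 4 h, 10 of 50 peaks at Cpeb4 lay that close to a 0 h peak. At Psap, 15 of 21 peaks of 4 h lay that close to a 0 h peak and 8 of 21 to a 10 h peak.

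**Figure D3:**
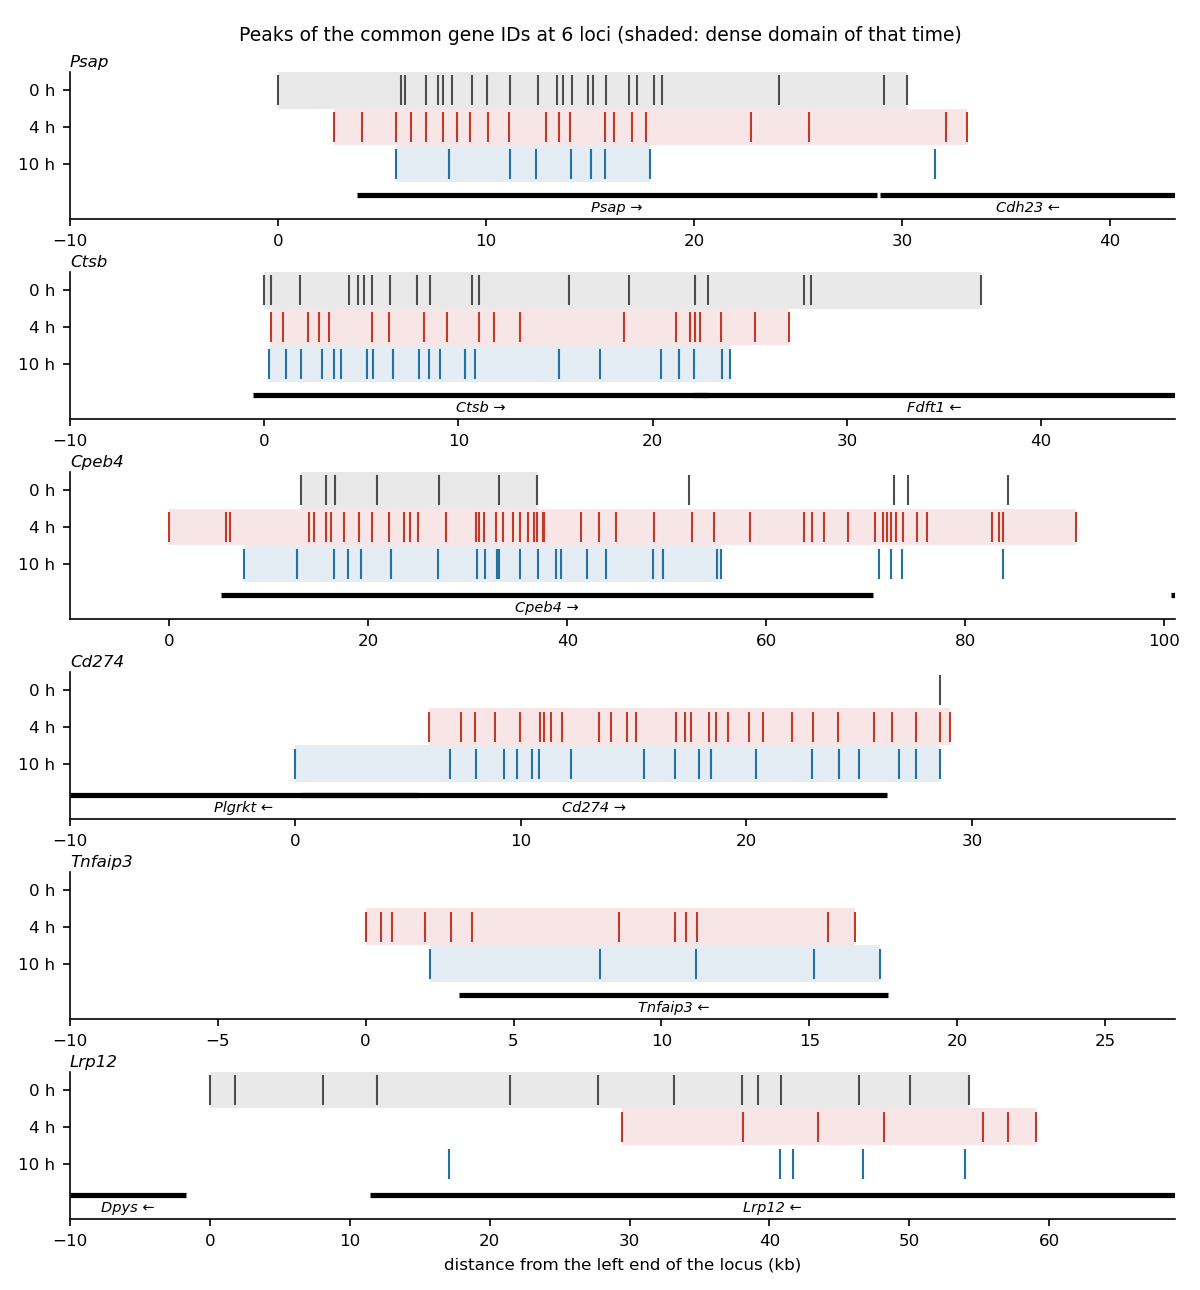
Peaks at 6 loci over the common gene IDs; the x axis is the distance in kb from the left end of the merged locus, each tick is 1 peak of 0 h, 4 h or 10 h, shading marks the dense domain of that time and black bars are protein-coding genes with their direction. Psap, Ctsb and Cpeb4 are shaded at all 3 times, Cd274 and Tnfaip3 at 4 h and 10 h, and Lrp12 at 0 h and 4 h.

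A domain at 4 h and 10 h but not at 0 h was found at 5 loci. Tnfaip3, the ubiquitin-editing inhibitor A20 of NF-kB, had no peak at 0 h, 12 at 4 h, with 5 at 10 h. Cd274 with its neighbour Plgrkt held 1, 29 and 19. Aoah, an enzyme that inactivates LPS by removing acyl chains, held 0, 9 and 6. Capza2, an actin-capping subunit, held 0, 11 and 8. The locus that reached Tnfrsf1b, the tumour necrosis factor receptor 2, held 2, 12 and 7. Inside that gene lay 0, 5 and 2 peaks, and Vps13d was the only nearest gene named for the 4 h domain. All 5 loci had most peaks at 4 h and at most 2 at 0 h.

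Resting domains with a 4 h but no 10 h domain were Lrp12, a receptor of the low-density lipoprotein receptor family (13, 7 and 5 peaks), and Itm2b, a membrane protein (5, 8 and 1). The 3 domains of 0 h alone were Slc29a3 (7, 1 and 0), Atp6v1c1, another proton pump subunit (6, 3 and 0), and Tab1 (5, 0 and 1). Tab1 was the only 0 h domain without any 4 h peak. The single 10 h domain without a 4 h domain was that at A530013C23Rik, with 0, 4 and 6 peaks over 4.9 kb, and its 4 peaks at 4 h are 1 short of the minimum. The other 153 loci had a domain at 4 h alone.

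Peaks of the other libraries, which had no part in defining the 4 h domains, were also dense inside them. Of the 1312 peaks at 0 h, 167 lay in 4 h domains, 12.7% (11 to 14.7%), or 4.89 per 100 kb. Over the 2070 protein-coding genes named as nearest to a peak in any list, with 5 kb on both sides, there were 0.821 per 100 kb. The density in 4 h domains was 5.95 times as high. Of the 1152 peaks at 10 h, 222 lay there, 19.3% (17.0 to 21.7%), or 6.50 against 0.731 per 100 kb, 8.89 times. Within 0 h domains 4 h peaks ran at 33.5 per 100 kb against 3.21, and within 10 h domains at 61.4. These peaks were unevenly placed: 94 of the 164 domains at 4 h held no 0 h peak and 88 held no 10 h peak, while every domain at 10 h held a 4 h peak.

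**Figure D4:**
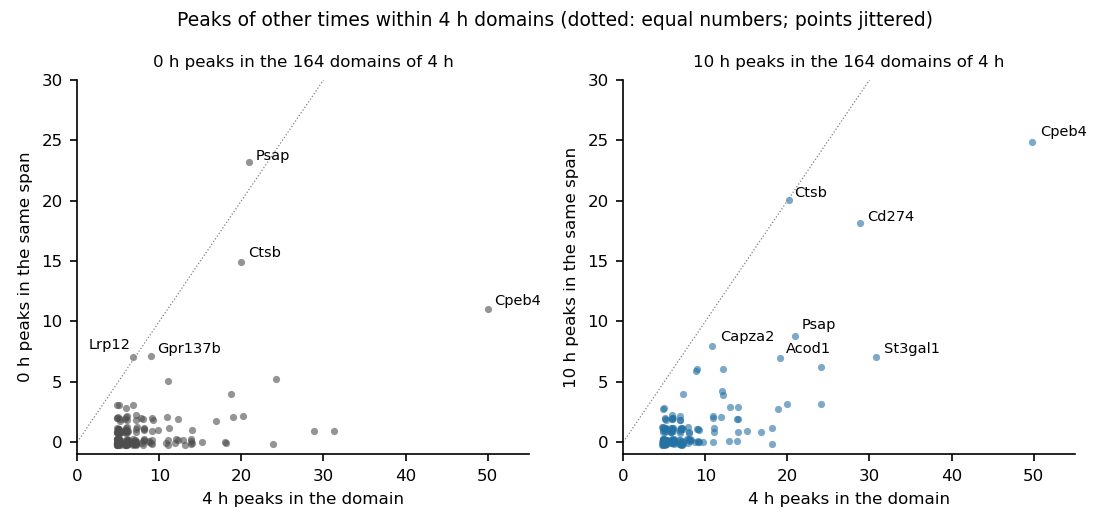
Peaks of 0 h (left) and 10 h (right) in the span of each of the 164 domains of 4 h, against the number of 4 h peaks that define it; each point is 1 domain, moved slightly to separate ties, and the dotted line marks equal numbers. Most domains lie near 0 on the y axis, and Psap is the only one with more peaks at 0 h (23) than at 4 h (21).

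A gene counted as covered when a domain overlapped it, and peak numbers beside genes are those of the whole domain. Gene lists were read against the share under a domain of protein-coding genes named as nearest to a peak in at least 1 peak list. This share was 0.483% at 0 h (10 of 2070), 6.52% at 4 h (135) and 0.483% at 10 h (10). The longest peak list, that of 4 h, had a part in choosing these genes, and members of gene lists were counted only among them. With genes not matched to such a name, 4 h domains overlapped 147 protein-coding genes. The gene lists were drawn up with earlier results of these data known. At 4 h, 6 of 15 early LPS-induced genes were covered: Cd40, a costimulatory receptor (15 peaks), Tnfaip3 (12), Klf6, a zinc finger factor (8), Cd83, a marker of activation (7), Nfkbia, the NF-kB inhibitor (6), and Plk2, a stress kinase (6). Of 8 late LPS-induced genes 4 were covered: Cd274 (29), Acod1 (19), Nos2 and Il10. Nos2, the inducible nitric oxide synthase, had 16 in 2 domains, while the gene itself held 6 peaks. The domain that reached its end had only Lgals9 as nearest gene. Il10, an anti-inflammatory cytokine, had 10, of which 0 lay inside the gene. Of 4 interferon-response genes the neighbours Cmpk2, a nucleotide kinase (13), and Rsad2, the antiviral enzyme viperin (11), were covered. Mx1 is also on that list and lay in a 4 h domain, but as a pseudogene of the annotation it was not counted.

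Other groups at 4 h gave 4 of 9 lysosome genes (Psap, Ctsb, Npc2 and Ctsz, cathepsin Z), 3 of 5 macrophage genes (Ctsb, Fcgr1, an Fc receptor, and Spi1, which encodes PU.1) and 3 of 9 hnRNP and splicing factor genes (Mbnl2, Hnrnpa2b1 and Taf15). TLR4 and NF-kB signalling gave 1 of 7 (Tbk1, a kinase of interferon induction), housekeeping genes 1 of 5 (Ywhaz, a 14-3-3 protein), and the DNA damage and the T and B cell lists 0 of 2 each. Peak positions do not measure expression, so the labelled cell type was not checked beyond these counts. Covered genes were again longer, with a median of 40.3 kb against 27.2 kb. With every 4th peak kept, 1 to 2 late LPS-induced and 1 to 3 lysosome genes stayed covered, and 4 to 9 genes in all. No early LPS-induced or interferon gene stayed covered, but none could. Their domains had at most 15 peaks (Cd40), and every 4th of 15 leaves fewer than 5. This loss thus says nothing particular about them.

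At 0 h over the same IDs the lysosome list had 3 of 9 genes covered (Psap, Ctsb and Slc29a3), the macrophage list 1 of 5 (Ctsb), the signalling list 1 of 7 (Tab1), and the early and late LPS-induced and interferon lists none of 15, 8 and 4. At 10 h the lysosome list had 2 of 9 (Ctsb and Psap), early LPS-induced genes 1 of 15 (Tnfaip3), late ones 1 of 8 (Cd274) and interferon genes 0 of 4. Ctsb and Psap were thus the lysosome genes with a domain at each time. Over these IDs none of the listed LPS-induced genes had one at 0 h. As 0.483% of all genes counted were covered at 0 h, lists of 15 and 8 genes would mostly show none, so this says nothing particular about them.

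The longer range of IDs shared by 0 h and 4 h alone gave 19 domains at 0 h and 255 at 4 h. It adds Zeb2, with 44 peaks over 125.3 kb at 4 h and 32 in that span at 0 h, and the pair Colgalt2 and Rgl1, with 41 over 123.4 kb and 31 at 0 h. Slco3a1, an organic anion transporter, had 40 peaks at 4 h and 0 at 0 h in its largest of 3 domains. Cflar, which restrains caspase-8, had 38 and 1, and Ifih1, the RNA sensor MDA5, 22 and 1. A domain of 33 peaks at 4 h and 0 at 0 h had Fam3b, Mx2 and Tmprss2 as nearest genes; Mx2, like Mx1, is listed as a transcribed pseudogene, and Tmprss2 held 4 of the peaks. Zeb2 and Rgl1 had a domain at both times.

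In this range 13 of 19 domains at 0 h overlapped one of 4 h, 68.4% (43.5 to 87.4%), and 150 of 255 at 4 h held no 0 h peak. Of the 3459 genes named as nearest in this range, domains covered 0.463% at 0 h, among them 3 of 14 lysosome and 0 of 22 early LPS-induced genes. They covered 6.39% at 4 h, among them 8 of 22 early LPS-induced genes, 5 of 9 late ones, 5 of 14 lysosome, 5 of 10 macrophage and 0 of 7 DNA damage genes. Atf3, 1 of these 8, had a resting domain of 7 peaks in the complete list, which this range cut to a chain of 4. At a share of 0.463% a list of 22 genes would mostly show none at 0 h, so that 0 says nothing particular. Pdpk1, a kinase upstream of Akt, held a domain of 7 peaks at 0 h with no 4 h peak.

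The authors' annotation class, which the choice of domains did not use, differed between peaks inside and outside them. At 4 h, 10.8% of peaks in domains were within 1 kb of a start (9.16 to 12.5%), against 23.2% outside (21.9 to 24.6%). Introns took 50.3% (47.6 to 53.0%) inside and 37.4% (35.9 to 38.9%) outside. At 10 h the promoter shares were 9.35% (4.57 to 16.5%) and 22.0% (19.5 to 24.6%), with introns at 56.1% and 40.8%. Domains at both LPS times were poorer in promoter peaks and richer in intron peaks than the rest of their lists, with intervals that did not overlap. The intervals treat peaks of 1 domain as independent. A chain of 5 or more peaks mostly reaches beyond 1 kb of a start, and lone promoter peaks stay outside domains. The chaining rule itself thus favours this direction, and how much of the difference it makes was not tested.

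The complete 0 h list had promoter shares of 12.1% (9.53 to 15.0%) inside domains and 28.6% (27.6 to 29.6%) outside. Distal intergenic peaks made up 12.2% inside and 22.3% outside. At 4 h the intervals of that class overlapped, with 15.3% (13.4 to 17.3%) inside and 17.5% (16.3 to 18.7%) outside. A peak within 1 kb of a start was present in 39 of the 69 resting domains and in 77 of the 164 domains at 4 h, and the domain at Mx1 had the most among the 10 largest of 4 h, 10 of its 24.

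**Figure D5:**
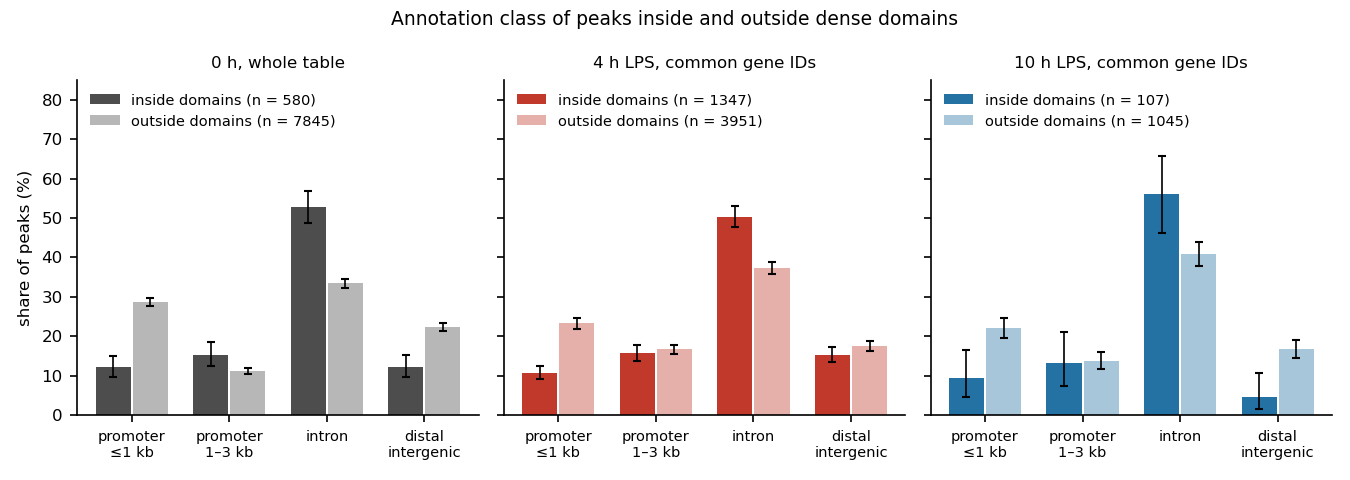
Share of peaks (y axis, percent) in 4 annotation classes inside (dark bars) and outside (pale bars) dense domains, for the complete 0 h list, 4 h and 10 h; error bars are exact 95% intervals of counting error and n is the number of peaks. Promoter peaks within 1 kb are fewer and intron peaks more frequent inside domains in all 3 panels.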

How the data were processed

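The 6 samples were grouped by their titles, with 1 library per group, and only the 3 ChIP peak tables entered. The submitters' processing notes name MACS2 2.1.0, BWA 0.7.12, CASAVA 1.8 and the build GRCm38 (mm10); roles, settings and use of the input are not given in the sources used here. The authors deposited, per the file headers, a position, an annotation class and the nearest gene for every peak. Positions are points 2 bp wide, with no height, q-value or depth, so every peak counted once.

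Rows follow the gene ID. The incomplete last row of the 4 h table was dropped, and the 10 h table ends at the lowest ID. Comparisons used nearest genes with IDs below ENSMUSG00000022416 (all tables) or ENSMUSG00000027620 (0 h and 4 h), selected before chaining. The 0 h table was also used whole. Peaks at most 10 kb apart were chained and chains of 5 or more kept. Protein-coding genes came from the RefSeq annotation of GRCm38.p6; a gene counted as covered when a domain overlapped its span. Promoter windows and miRNAs came from RefSeq tables of that build.

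Named genes are those of the 10 domains with the most peaks and the 5 longest at each time and range, of domains at all times, of 0 h domains without a 4 h peak, and up to 4 covered members of each of the 12 lists, by peaks; all covered members are named where few, and Lgals3, Peli1, Tmcc3 and Abr were added after their values were seen. Members and lists were chosen with earlier results of these data known. Chaining was checked on simulated data with planted chains. Alternatives changed the link distance, minimum, merging, classes, range, overlap and gene rule. Python 3.11.15, pandas 2.3.3, numpy 2.4.6, scipy 1.17.1 and matplotlib 3.10.9 were used. Some genes covered by domains are not reported here.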

Additional observations from a re-analysis of the deposited data

How the results depend on the processing

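Of 117 alternative values over 14 settings, 51 kept within the spread of counting error or 1.5 times the count, and 66 moved. Gene numbers here take in every protein-coding gene that a domain overlapped, whether or not a peak list named it. With a link distance of 5 kb the common IDs gave 3 domains at 0 h and 94 at 4 h, with 3.28%, 14.3% and 7.55% of peaks at 0, 4 and 10 h, and 3 and 80 genes at 0 h and 4 h. The complete 0 h list then gave 41 domains, 3.81% and 30 genes. At 20 kb there were 19 domains at 0 h and 18 at 10 h, with 12.3%, 39.0% and 14.6% of peaks and 24, 283 and 22 genes at the 3 times. The complete list gave 123 domains, 12.1% and 125 genes.

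With at least 4 peaks per chain there were 23 domains at 0 h and 20 at 10 h, with 11.2%, 31.5% and 12.8% of peaks at the 3 times and 25 and 21 genes at 0 h and 10 h. The complete list gave 124 domains, 9.50% and 113 genes. With at least 8 peaks there were 3, 51 and 4 domains, 4.27%, 13.3% and 5.99% of peaks and 5, 56 and 6 genes at the 3 times, and 24 domains, 3.86% and 29 genes in the complete list. All 4 domains of 10 h with at least 8 peaks overlapped one of 4 h (100%).

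Merging peaks within 500 bp gave shares of 5.16% at 0 h, 23.9% at 4 h and 6.07% in the complete list, and 100% of the 10 h domains then overlapped one of 4 h. A link distance scaled to list length gave 25 domains, 16.8% of peaks and 33 genes at 0 h, and 29, 21.5% and 40 at 10 h. Keeping every 4th peak at 4 h gave means of 6.25 domains, 2.79% of peaks and 6.25 genes, with 25% of 0 h and 32.5% of 10 h domains overlapping. The longer range gave 19 domains, 8.76% and 18 genes at 0 h, and 255 domains and 242 genes at 4 h. All complete rows of each table gave 69 domains at 0 h and 255 at 4 h.

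In each setting that treats the lists alike, 4 h had more domains than 0 h and 10 h. The order also held when the link distance was scaled to list length, with 25 and 29 domains at 0 h and 10 h against 164. It did not hold once every 4th peak of 4 h was kept, which by design removes every domain of 5 to 9 peaks. No paired analysis was possible because each group has 1 library. Depth is unknown, and without peak heights a dense domain cannot be told apart from a broad signal that the peak caller split. Genes beyond the ID limits were not compared, and resting domains that cross a limit lose peaks: Litaf had 20 peaks in the complete list and 8 in the longer range.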

Other observations

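Some further domains of resting cells were picked after their values were seen. Neat1, the long non-coding RNA that builds paraspeckles, had 8 peaks over 9.0 kb. A domain of 8 peaks over 21.6 kb covered Hnrnpa3, an RNA-binding protein of the hnRNP group, and its neighbour Nfe2l2, the regulator of the antioxidant response. Sirpa, an inhibitory receptor of phagocytes, had 7 peaks over 11.8 kb.

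Neighbouring 4 h domains in the longer range lay at the genes of the interferon kinase Jak2 (16 peaks over 36.2 kb) and Cd274 (29 over 23.1 kb) and reached the edge of Pdcd1lg2, which encodes PD-L2 (5 over 9.4 kb), where 0 h had 0, 1 and 3 peaks. Cybb, the catalytic subunit of the phagocyte NADPH oxidase, had 14 peaks over 32.9 kb at 4 h and 0 at both other times. A 4 h domain of 6 peaks over 3.6 kb lay between Heatr9 and the chemokine gene Ccl5, with 1 peak in each, where 0 h and 10 h had 0.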
